A study of Mus musculus with 8 samples.

Results

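The genes described here copy the genome or prepare the cell for it: the origin and helicase proteins, the polymerases with their clamp, the enzymes that supply deoxynucleotides, the cyclin E and E2F regulators, and the factors that rebuild chromatin behind the fork. They were chosen as a fixed list of 43 symbols, of which 38 had a row in the deposited gene table of 15728 genes. Cdc6, Ccne1, E2f8, Gins1 and Mcm10 had no row and were not analysed here. Of the 38, 34 reached at least 1 CPM (reads of the gene scaled to the same total in every library) in at least 4 of the 8 libraries and were tested, among 14065 genes in all. Lung RNA was profiled with CAGE, cap analysis of gene expression. The method captures the capped 5′ end of RNA and counts 1 read per captured transcript start, so that a level does not grow with transcript length. The 2 groups were 4 wild type C57BL/6J mice and 4 mice of the genotype triply n/i/eNOSs-/-, which lack all 3 nitric oxide synthases (neuronal, inducible and endothelial) and are labelled with the same strain background. All were 4 weeks old and the lungs had received no exposure. The labels give no sex, litter, hour of collection or pooling, and they do not say which part of each Nos gene is missing.

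Before each S phase, in G1, a cell loads the MCM helicase, a ring of the subunits Mcm2 to Mcm7, onto origins marked by the origin recognition complex. Cyclin E with its kinase and the E2F factors then start transcription of the replication genes and the firing of origins, after which the polymerases, tethered by the Pcna ring, copy both strands. Most of these genes are transcribed mainly in cells that are cycling, and few cells of a lung divide once the early postnatal growth of the alveoli is over. In whole tissue, fewer cells of a type and less RNA per cell cannot be told apart, which holds for each difference below.

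Library totals recovered from the CPM steps were 15598154 to 18593913 reads in wild type and 13014134 to 15096188 reads in the knockout, so each knockout library was shallower than each wild type library. Nos3, the endothelial synthase, ranged from 18.2 to 22.8 CPM in wild type lungs and from 5.56 to 8.83 CPM in the knockout, and Nos1 and Nos2 were not analysed here. All 10 lung identity markers (among them Sftpc, Scgb1a1, Ager and Nkx2-1) were listed and passed the filter in these libraries. Their levels were not all alike between the groups, as 1 rose and 3 fell. Among those that fell was Sftpc, with means of 75410 CPM in wild type lungs and 40740 CPM in the knockout. Of the listed cell type markers, B cell genes fell for 6 of 10 tested, with summed levels of 162 to 219 CPM in wild type lungs and 66.5 to 180 CPM in the knockout, where the highest value was that of knockout replicate 1. For T cell and thymocyte genes, 2 of 7 tested fell (summed 48.8 to 57.7 CPM against 34.5 to 45.2 CPM), and the thymocyte-defining genes Rag1, Rag2, Dntt and Ptcra had no row. Erythroid genes fell for 4 and rose for 1 of 7 tested. Their summed level, mostly Hbb-b1, was 7326 to 14440 CPM against 6186 to 9154 CPM. Among 10 endothelial genes 3 rose, among 10 fibroblast genes 3 rose and 2 fell, among 9 alveolar macrophage genes 3 rose, and among 10 alveolar type 2 genes 1 rose and 5 fell. Over all genes tested, 16.6% rose and 14.3% fell, together 30.9% (limma adjusted p under 0.05). The share called was near this for endothelial (30%), alveolar macrophage (33.3%) and T cell and thymocyte genes (28.6%). For the lung identity, fibroblast, B cell, alveolar type 2 and erythroid lists it was 40% to 71.4%. The part of such cells in the replication gene results was not tested.

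The bases just before the start sites of subunits of the MCM ring are shown. These are the 170 bases before a RefSeq start (GRCm38.p6), 5′ to 3′ on the gene's strand. Capitals mark matches, on either strand, to the E2F consensus words TTTCCCGC, TTTGGCGC, TTTCGCGC and TTTGCCGC. The stretches are chr1:128359706-128359875 for Mcm6 (minus strand), chr8:75109339-75109508 for Mcm5 (plus strand), chr5:138171884-138172053 for 1 of the 2 starts of Mcm7 (minus strand), chr1:20820313-20820482 for Mcm3 (minus strand) and chr6:88898781-88898950 for Mcm2 (minus strand).
Mcm6: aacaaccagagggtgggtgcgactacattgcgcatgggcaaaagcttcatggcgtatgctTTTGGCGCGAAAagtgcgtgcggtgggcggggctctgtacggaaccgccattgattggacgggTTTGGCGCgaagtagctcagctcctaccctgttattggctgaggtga
Mcm5: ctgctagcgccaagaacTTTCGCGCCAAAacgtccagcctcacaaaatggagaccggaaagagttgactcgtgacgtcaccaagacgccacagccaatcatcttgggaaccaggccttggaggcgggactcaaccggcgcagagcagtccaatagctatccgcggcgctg
Mcm7: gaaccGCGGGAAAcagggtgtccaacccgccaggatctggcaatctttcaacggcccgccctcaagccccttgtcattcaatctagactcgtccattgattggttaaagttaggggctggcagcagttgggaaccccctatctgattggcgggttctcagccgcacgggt
Mcm3: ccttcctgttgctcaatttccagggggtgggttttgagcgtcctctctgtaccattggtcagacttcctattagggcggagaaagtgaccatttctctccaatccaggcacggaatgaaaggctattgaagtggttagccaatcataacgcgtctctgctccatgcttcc
Mcm2: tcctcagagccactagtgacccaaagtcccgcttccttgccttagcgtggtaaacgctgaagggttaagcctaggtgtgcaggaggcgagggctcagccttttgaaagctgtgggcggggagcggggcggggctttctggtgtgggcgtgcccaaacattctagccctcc
Mcm6 holds 3 words here, 2 of which overlap each other, Mcm5 holds 2 that overlap, and Mcm7 holds 1. The Mcm7 start shown was taken for its words, and the other start of Mcm7 holds none. Mcm3 and Mcm2 hold none in this stretch. After the start, Mcm3 has words at bases 20 and 39, and Mcm7 has 1 at base 17. Mcm4 has no entry in the promoter table.

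Over all members with a RefSeq promoter, 15 of 37 genes (40.5%) held at least 1 of the words between 250 bases before and 50 bases after a start. The share was 12 of 29 (41.4%) among members tested and 4.56% among the 9313 genes tested that had a promoter in the table. Of the 5 members that fell in the knockout, 4 have an entry, and Mcm3, Mcm6 and E2f2 hold a word while Mcm2 does not. The 2 that rose, E2f1 and Orc2, hold none in these windows. Among the 27 members that did not pass the test, 23 have an entry and 9 hold a word. A word is a match of letters and shows no binding, and its part in the fold changes was not tested.

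Most replication genes were expressed at a low level. The mean over the 8 libraries was at least 10 CPM for 11 of the 38 listed members, 1 to 10 CPM for 23 and under 1 CPM for 4. The median of the 34 members tested was 7.11 CPM, against 19.2 CPM over all genes tested. Pcna was the highest at 37.5 CPM, followed by Orc2 (29.0 CPM), Dut (26.3 CPM), Orc6 (24.3 CPM) and Rfc2 (22.9 CPM). Tk1 (0.54 CPM), Orc1 (0.28 CPM), Uhrf1 (0.25 CPM) and Brca1 (0.15 CPM) were the lowest. Summed over the 38 members, wild type libraries held 360.6 ± 13.8 CPM (SD, n = 4) and knockout libraries 335.9 ± 12.6 CPM (SD, n = 4), with ranges of 345.5 to 378.6 CPM and 323.7 to 350.4 CPM that overlapped.

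The comparison asks how the lung transcriptome differs where all 3 synthases are missing. Mcm2, Mcm3, Mcm6, Ccne2 and E2f2 fell and E2f1 and Orc2 rose, and none of the polymerase, clamp, nucleotide or chromatin genes passed the test. The 7 called members were 20.6% of the 34 tested, and 30.9% of all genes tested were called (limma, Benjamini-Hochberg adjusted p under 0.05). By direction, 5.88% of the members rose against 16.6% of all genes, and 14.7% fell against 14.3%. The wild type and knockout values did not overlap for 7 members (20.6%), against 31.2% of all genes. The median log2 fold change, knockout minus wild type on log2(CPM + 0.5), was -0.09 over the members and 0.01 over all genes tested. Of the 34 values 23 were negative, 5 of them called, and the share of negative values over all genes was not counted. In size, the median absolute value was 0.16 over the members and 0.19 over all genes. These fold changes understate the change of genes with few reads.

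Mcm6, a subunit of the helicase ring, changed most. Its level was 20.9, 20.4, 24.1 and 19.5 CPM in wild type replicates 1 to 4 and 8.28, 7.91, 7.73 and 9.37 CPM in knockout replicates 1 to 4. Every knockout value lay below every wild type value, and the knockout libraries were close to each other. The means were 21.2 ± 2 CPM and 8.32 ± 0.73 CPM (SD, n = 4 each), a 2.55-fold lower level, and the log2 fold change was -1.30 (SE 0.10, limma adjusted p = 4.51e-06). These values rest on 304 to 417 reads per wild type library and 112 to 125 reads per knockout library. Of the 14065 genes tested, 1.39% were called and fell by more than 1 on the log2 scale, and Mcm6 was the only such member. No gene of the reference annotation overlapped Mcm6, and no near-identical 5′ copy was found.

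Mcm3 and Mcm2, subunits of the same ring, fell less. Mcm3 stood at 10.2, 10.8, 12.5 and 10.5 CPM in wild type lungs and 7.29, 7.30, 8.90 and 8.22 CPM in the knockout. The groups did not overlap, and the log2 fold change was -0.44 (SE 0.10, limma adjusted p = 0.00787). For Mcm2 the values were 8.01, 6.94, 9.18 and 8.14 CPM in wild type lungs and 6.09, 5.75, 6.42 and 5.53 CPM in the knockout. These also lay apart, by a smaller gap, with a log2 fold change of -0.41 (SE 0.11, limma adjusted p = 0.0144).

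The other 3 ring subunits did not pass the test. Mcm7, at 13.9 to 17.2 CPM in wild type lungs and 14.7 to 18.5 CPM in the knockout, had a log2 fold change of 0.03 with a 95% interval of -0.19 to 0.24. The Mcm7 gene overlaps Cops6 and Ap4m1 on the other strand, and the sources used here do not say whether the counting used strand. Near-identical 5′ copies of Mcm7 were found, and they had no row. Mcm4 stood at 8.76 ± 0.20 CPM in wild type lungs and 8.53 ± 0.60 CPM in the knockout (SD, n = 4 each), with an interval of -0.23 to 0.15. Mcm5 had 4.66 ± 0.84 and 4.14 ± 0.36 CPM (SD, n = 4 each), with an interval of -0.43 to 0.15. The interval of Mcm6, -1.51 to -1.09, lay below those of the other 5 subunits.

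**Figure D1:**
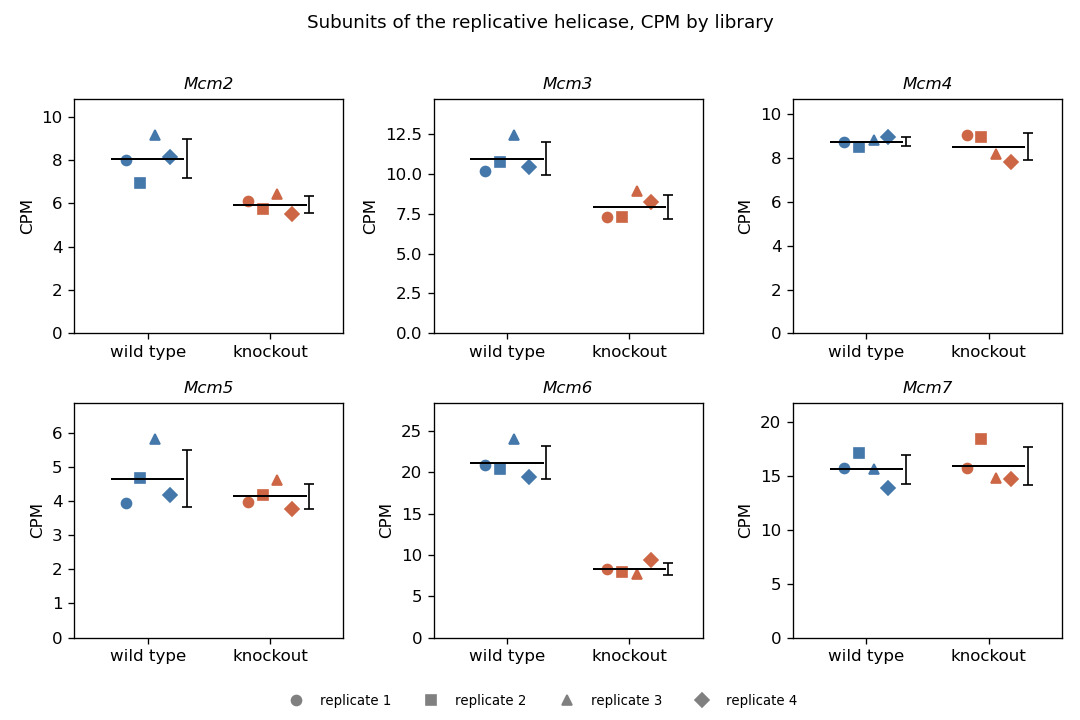
CPM of the 6 subunits of the MCM ring in each library, with the replicate number as the marker, group means as horizontal lines and SD as bars (n = 4 each). Mcm6 separates the genotypes by the widest gap, 19.5 to 24.1 CPM against 7.73 to 9.37 CPM, while the values of Mcm4, Mcm5 and Mcm7 overlap.

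The make-up of MCM transcripts differed between genotypes, in a measure that scaling by 1 factor per library cannot alter. Mcm6 made up 30.9%, 29.8%, 31.7% and 29.9% of the summed Mcm2 to Mcm7 level in the wild type libraries and 16.4%, 15.04%, 15.2% and 19.0% in the knockout libraries. It stood at 2.20 ± 0.09 times the mean of the other 5 subunits in wild type and at 0.98 ± 0.13 times in the knockout (SD, n = 4 each). The summed level of the other 5 was 45.7 to 52.0 CPM in wild type lungs and 40.0 to 44.7 CPM in the knockout, ranges that did not overlap. These ratios are a description, with no test, since the members were chosen with earlier results known. Mcm6 was the subunit that fell most, so its share and ratio restate that fall and are not a separate result.

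Of the proteins that join the ring to form the active helicase, Cdc45 had 0.96, 1.45, 1.67 and 1.6 CPM in wild type lungs and 0.99, 0.95, 1.10 and 0.69 CPM in the knockout. The lowest wild type value lay among the knockout values, and only 9 to 29 reads stood behind each. Its log2 fold change of -0.41 (SE 0.18) did not pass (limma adjusted p = 0.1005), and it did so without wild type replicate 1 (limma adjusted p = 0.0484). Cdc45 overlaps Ufd1 on the other strand. Gins2, of the GINS complex, had 4.03 ± 0.88 CPM in wild type lungs and 3.57 ± 1.01 CPM in the knockout (SD, n = 4 each).

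Among origin proteins, Orc2, a subunit of the origin recognition complex, rose slightly. It stood at 26.0, 27.5, 28.4 and 24.6 CPM in wild type lungs and 31.1, 33.7, 31.5 and 29.5 CPM in the knockout. The groups were separate by a narrow gap, and the log2 fold change was 0.24 (SE 0.07, limma adjusted p = 0.0307). The call was lost when replicate 2 or 3 of the knockout, or 1, 2 or 4 of wild type, was omitted (adjusted p = 0.0131 to 0.0803 over all alternatives). Orc2 overlaps Nif3l1 on the other strand, which stood at 4.33 ± 0.85 and 4.10 ± 0.46 CPM (SD, n = 4 each). Orc6, another subunit, had 22.9, 24.9, 22.9 and 23.9 CPM in wild type lungs and 24.5, 23.4, 25.9 and 25.7 CPM in the knockout, with overlapping groups and an interval of -0.08 to 0.22 for the log2 fold change. Cdt1, which loads the ring onto origins, had the widest interval of the members tested, -0.57 to 0.39, from 19 to 52 reads per library. Orc1 did not pass the filter, with 0 to 10 reads per library.

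The G1/S regulators moved in both directions. Ccne2, a cyclin E gene, had 4.84, 4.46, 3.87 and 3.97 CPM in wild type lungs and 1.99, 1.89, 2.90 and 2.77 CPM in the knockout. Its groups did not overlap, with 62 to 83 reads per wild type and 28 to 42 reads per knockout library. It fell 1.80-fold by the means, with a log2 fold change of -0.74 (SE 0.15, limma adjusted p = 0.00403). Ccne2 overlaps Ints8 on the other strand, whose level was 18.0 ± 0.997 CPM in wild type lungs and 16.8 ± 2.95 CPM in the knockout (SD, n = 4 each).

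The E2F genes E2f1 and E2f2 encode transcription activators of the replication genes and changed in opposite directions. E2f2 stood at 17.5, 18.0, 18.3 and 18.3 CPM in wild type lungs and 13.5, 13.8, 14.1 and 15.8 CPM in the knockout. All knockout values were lower, with a log2 fold change of -0.32 (SE 0.08, limma adjusted p = 0.00947). E2f1 had 6.58, 7.58, 6.47 and 8.27 CPM in wild type lungs and 9.67, 9.81, 10.5 and 7.76 CPM in the knockout. Knockout replicate 4 lay within the wild type range, and the other 3 lay above it. The log2 fold change of E2f1 was 0.36 (SE 0.12, limma adjusted p = 0.0388), and the call was lost when replicate 1, 2 or 3 of either genotype was omitted, and with the replicate number as a block (adjusted p = 0.0153 to 0.106 over all alternatives). The ratio of E2f1 to E2f2 was 0.35 to 0.45 in the wild type libraries and 0.72, 0.71, 0.75 and 0.49 in knockout replicates 1 to 4.

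**Figure D2:**
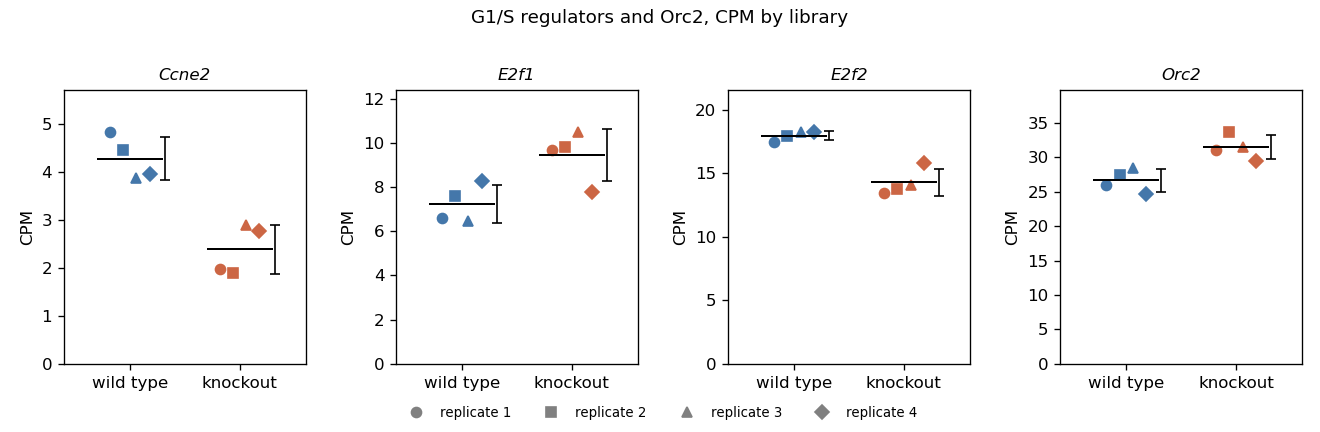
CPM of Ccne2, E2f1, E2f2 and Orc2 in each library, drawn as for the MCM subunits (means as lines, SD as bars, n = 4 each). Ccne2 and E2f2 lie lower and Orc2 higher in each knockout library, and E2f1 of knockout replicate 4 (7.76 CPM) lies within the wild type range.

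None of the 12 genes of the polymerases, the clamp and its loader and Okazaki fragment joining passed the test. Pola1, the catalytic subunit of the priming polymerase, came nearest, with 3.89, 5.11, 5.66 and 5.13 CPM in wild type lungs and 4.50, 4.12, 2.69 and 3.30 CPM in the knockout. The groups overlapped in knockout replicates 1 and 2 and wild type replicate 1, and the log2 fold change was -0.40 (SE 0.16, limma adjusted p = 0.0824). Without knockout replicate 1 it passed (limma adjusted p = 0.0403). Pcna, the sliding clamp, had 40.8, 41.3, 40.1 and 36.0 CPM in wild type lungs and 35.8, 33.1, 40.4 and 32.8 CPM in the knockout. Knockout replicate 3 lay among the wild type values, and the interval of the log2 fold change was -0.34 to 0.02. Its listed near-identical copy Pcna-ps2 held 0.06 to 0.32 CPM, and the groups still overlapped with it added.

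Rfc2, a subunit of the clamp loader, had 24.2, 23.7, 24.8 and 22.5 CPM in wild type lungs and 22.3, 21.6, 21.5 and 22.4 CPM in the knockout. The groups just failed to touch, and the log2 fold change was -0.11 (SE 0.07, limma adjusted p = 0.22). The other loader subunits Rfc1, Rfc3, Rfc4 and Rfc5 had log2 fold changes of 0.02, -0.11, 0.13 and 0.01. For the catalytic subunits of the leading and lagging strand polymerases, Pole and Pold1, they were -0.09 and -0.03, and for the primase Prim1 -0.10. Fen1, which trims the flaps of Okazaki fragments, and Lig1, which seals them, had -0.23 and -0.22, with intervals of -0.62 to 0.15 and -0.64 to 0.20.

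Genes for deoxynucleotide supply did not pass the test in either direction. Dut, which removes dUTP, had 25.1, 27.6, 26.9 and 24.8 CPM in wild type lungs and 26.1, 29.4, 26.4 and 24.5 CPM in the knockout. The groups overlapped over most of their range, with an interval of -0.14 to 0.19 on the log2 scale. Rrm1 and Rrm2, the large and small subunits of ribonucleotide reductase, had intervals of -0.28 to 0.12 and -0.41 to 0.37. Tyms, which makes thymidylate, stood at 12.2 ± 0.999 CPM in wild type lungs and 14.1 ± 2.80 CPM in the knockout (SD, n = 4 each), where replicate 2 was highest at 17.9 CPM. The salvage kinase Tk1 did not pass the filter, with 8 to 17 reads per wild type and 3 to 9 reads per knockout library.

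Chaf1a, the large subunit of the chromatin assembly factor that deposits histones behind the fork, had 1.56, 2.15, 1.91 and 2.05 CPM in wild type lungs and 1.39, 1.35, 1.59 and 1.0 CPM in the knockout. Knockout replicate 3 and wild type replicate 1 overlapped, and the log2 fold change of -0.40 (SE 0.16) did not pass (limma adjusted p = 0.0714), though it did in a fit without the variance trend (limma adjusted p = 0.0308). The partner subunit Chaf1b had 2.62 ± 0.59 and 3.06 ± 0.43 CPM (SD, n = 4 each), a log2 fold change of 0.20 with an interval of -0.16 to 0.56. Hells, a chromatin remodeller, had a log2 fold change of 0.17. Brca2, which protects stalled forks, stood at 2.48 ± 0.41 and 2.04 ± 0.19 CPM (SD, n = 4 each). Uhrf1, which brings the maintenance DNA methyltransferase to new DNA, had 0 to 9 reads per wild type library and 2 to 3 per knockout library. In wild type replicate 4 it had 0 reads, where 3 reads would be 0.192 CPM. Brca1 had 0 to 5 reads. Neither passed the filter, and no difference could be read at this depth.

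**Figure D3:**
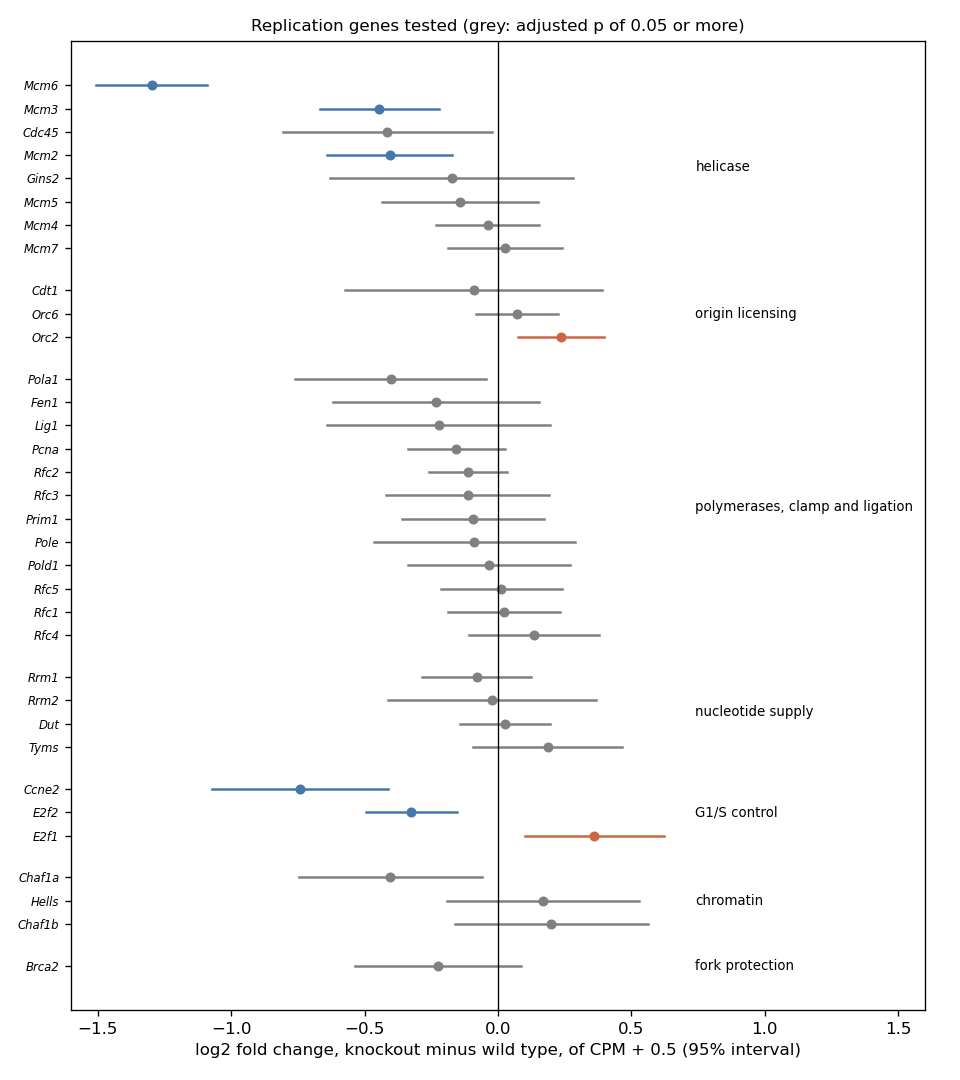
Log2 fold change (knockout minus wild type, of CPM + 0.5) and 95% interval of the 34 members tested, grouped by role. Blue marks the 5 called lower, orange the 2 called higher and grey the 27 not called. The interval of Mcm6 lies apart from those of the other helicase genes.

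For the 27 members not called, estimates ran from -0.41 (Cdc45) to 0.20 (Chaf1b). On the fitted log2 scale, the interval stayed within 1.5-fold either way for 21 of them and reached past it for 6. That scale understates the change of genes with few reads. Changes of 1.5-fold in CPM therefore cannot be set aside for those 6, nor for members with few reads among the 21. An example of the latter is Cdt1, with a mean of 2.33 CPM and an interval of -0.57 to 0.39. Intervals were narrowest for Rfc2 (0.29 wide on the log2 scale) and widest for Cdt1 (0.96).

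The rest of the pathway was read from lists of related genes. Of 40 other replication genes tested 5 rose and 3 fell, together 20%. Rpa3 and Rpa1, subunits of the single-strand binding protein, fell from 49.6 ± 2.58 to 29.9 ± 4.71 CPM (limma adjusted p = 0.000512) and from 35.9 ± 0.84 to 28.1 ± 1.71 CPM (SD, n = 4 each). Rnaseh2b, of the enzyme that removes ribonucleotides from DNA, fell from 16.7 ± 1.27 to 10.2 ± 0.84 CPM and Rnaseh2c of the same enzyme rose from 70.2 ± 5.76 to 87.9 ± 7.34 CPM. The small polymerase epsilon subunits Pole3 and Pole4 rose by 0.25 and 0.29 on the log2 scale, Rif1, which controls origin timing, by 0.55, and Slbp, which binds histone mRNA, by 0.46.

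Of 17 other nucleotide genes 1 rose and 4 fell. Dck, a salvage kinase, fell from 3.96 ± 0.60 to 2.47 ± 0.35 CPM, and Gart and Atic, of purine synthesis, fell by 0.44 and 0.52 on the log2 scale. Samhd1, which degrades deoxynucleotides, fell from 98.9 ± 5.31 to 77.7 ± 7.27 CPM, and Rrm2b, a reductase subunit used outside S phase, rose from 46.6 ± 2.67 to 56.8 ± 2.10 CPM (SD, n = 4 each). Among 22 other G1/S regulators 4 rose and 2 fell. Tfdp2, a partner of E2F proteins, rose from 56.0 ± 2.69 to 80.8 ± 5.62 CPM (limma adjusted p = 0.000307), Rbl2, a pocket protein that represses E2F targets, from 62.5 ± 0.69 to 80.0 ± 3.01 CPM and Cdk2, the kinase of cyclin E, from 26.2 ± 1.25 to 30.7 ± 1.40 CPM. Fbxw7, which marks cyclin E for degradation, fell from 13.6 ± 1.54 to 8.34 ± 2.08 CPM, and Cdk4 by 0.25 on the log2 scale. Of 15 other chromatin genes, Tlk2 and Cbx5 rose and Hat1 and Smarca5 fell. Over these 4 lists 23 of 94 genes tested were called, 24.5%, against 30.9% of all genes.

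Inhibitors of the cell cycle kinases were called for 5 of 6 genes tested (83.3%, against 30.9% of all genes). Cdkn2d was listed but did not pass the filter, with 0 to 10.7 CPM in wild type lungs and 0 to 7.49 CPM in the knockout. Cdkn2a rose from 0.60 ± 0.22 to 3.66 ± 1.15 CPM (limma adjusted p = 0.000209), Cdkn1b from 101.6 ± 2.38 to 123 ± 5.39 CPM, Cdkn2b from 34.1 ± 2.04 to 46.3 ± 5.12 CPM and Cdkn1a from 172.7 ± 18.4 to 226.9 ± 36.0 CPM, while Cdkn1c fell from 18.4 ± 0.90 to 14.99 ± 1.27 CPM (SD, n = 4 each). Cdkn2a was under 1 CPM in each wild type library and passed the filter only through its knockout values. The filter thus favoured its call, which the 83.3% includes. Cdkn2a left the test when any knockout library was omitted. Without knockout replicate 3 or 4 only 2 of the 4 inhibitors that rose were still called. The call of Cdkn1c was lost when replicate 1 or 2 of the knockout, or 2 or 3 of wild type, was omitted.

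Genes of mitosis were read library by library beside the replication genes. Of 19 mitotic genes tested, 10 rose (52.6%, against 16.6% of all genes) and 0 fell (limma adjusted p under 0.05). At an unadjusted limma p under 0.05 there were 13. With knockout replicate 1 left out all 19 rose, and with any other single library left out 5 to 8 did. Knockout replicate 1 was set apart by the values of these same genes, so the count without it is a description. In knockout replicate 1 each of the 19 had its lowest knockout value, which was not above the wild type range for 18. The median shift from the wild type mean, on log2(CPM + 0.5), was -0.28 in knockout replicate 1 and 1.29, 1.36 and 1.42 in replicates 2, 3 and 4. Prc1, a spindle midzone protein, had 3.07 to 3.81 CPM in wild type lungs and 3.44, 16.6, 21.1 and 20.7 CPM in knockout replicates 1 to 4. For Ccna2, the cyclin A gene, which acts in S phase and G2 and was listed with the G1/S regulators, the values were 1.26 to 1.62 CPM and 1.26, 6.49, 8.14 and 7.38 CPM.

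For the 34 replication members, the same shifts were -0.12, -0.09, -0.03 and -0.13 in knockout replicates 1 to 4. Over all genes tested they were 0.02, 0.07, 0.02 and -0.05. Knockout replicate 1 had the lowest knockout value for 9 of the 34 members (26.5%), against 27.2% of all genes. Replicates 2, 3 and 4 all lay above every wild type library for 1 member (2.94%, against 21.3% of all genes) and below for 6 (17.6%, against 17.8% of all genes), and above for 18 of the 19 mitotic genes and below for 0. Without knockout replicate 1, 1 member rose (Orc2) and 6 fell (the same 5 and Pola1), together 20.6% against 31.7% of all genes. Whether the 2 lists differ was not tested. The samples differ as well in B cell genes, whose median shift was -0.21 in knockout replicate 1 and -0.80, -1.10 and -1.58 in the others, and the part of those cells was not tested.

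**Figure D4:**
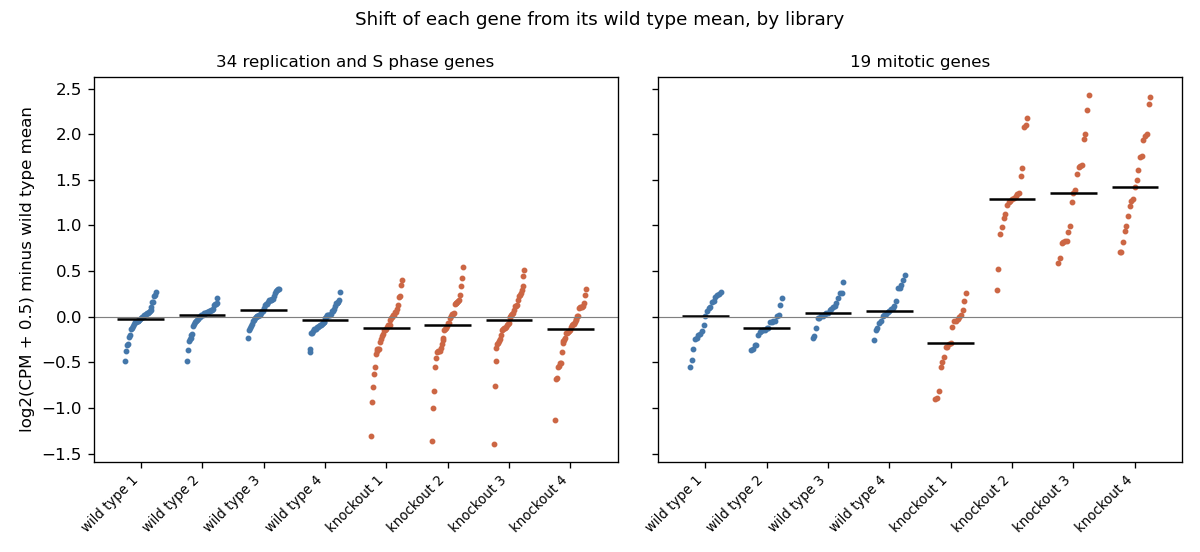
Shift of each gene from its wild type mean on log2(CPM + 0.5) in each library, sorted within a library, for the 34 replication members tested (left) and 19 mitotic genes (right), with medians as black lines. Mitotic genes stand higher in knockout replicates 2 to 4 (medians of 1.29 to 1.42) and not in replicate 1 (-0.28), and the medians of the replication genes in the 4 knockout libraries are -0.13 to -0.03, with Mcm6 the lowest point in each knockout library.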

How the data were processed

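Total RNA from 8 mouse lungs was profiled by CAGE as 75 nt single-end reads, per the labels' protocols. BWA 0.7.12-r1039, HISAT2 2.0.5, edgeR and mm9 are named in the submitters' processing notes, without role or order. For tag assignment, annotation and strand use, nothing is given in the sources used here. The values the authors deposited are CPM with 2 decimals, and from the values all columns sum to the same total. All values were whole multiples of 1 read within 0.1 reads (100%), which gave reads and totals per library. Intervals and floors cover counting error or the spread between these samples only, and the labels mention no molecular identifiers. The labels do not state that replicates are separate litters or extractions.

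A gene entered the test if 4 or more libraries reached 1 CPM. The fit, by limma 3.58.1 (R 4.3.3), took log2(CPM + 0.5) (variance trend, genotype only, two-sided, Benjamini-Hochberg over all genes tested, called under 0.05). The test was checked on simulated data. Alternatives were edgeR 4.0.16 and DESeq2 1.42.0 on the recovered reads, other pseudocounts, filters and scalings, a replicate block, and each library left out. Members and lists were chosen with earlier results of these data known. The rule described with all 8 values the members that were called or did not overlap, and of the others the 3 highest and the 3 with the largest fold change. Called genes of the other lists were named up to 8 per list; of the mitotic list, Prc1 was chosen after its values were seen. GENCODE M21 gave overlaps, and blastn 2.17.0 compared the first 200 nt of transcripts for copies of at least 97% identity over 75 nt. Such copies were found for Mcm7, Pcna, Tk1 and Brca2. Further members, among them Orc6, Rfc2, Chaf1a, Fen1 and Lig1, also overlap a listed gene on the other strand. Promoters came from RefSeq (GRCm38.p6).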

Additional observations from a re-analysis of the deposited data

Results flagged for a closer look

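One group of values stood apart. Wild type replicate 1 held 1.14 CPM of Rrm2, the small subunit of ribonucleotide reductase, from 19 reads. The other 3 wild type libraries held 2.04 to 2.14 CPM, so the gap to the nearest was 0.9 of the group's range, above Dixon's critical value for 4 samples. Of 68 groups examined this was 1, and chance flags about 1 in 20.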

How the results depend on the processing

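Over 19 alternatives, members called lower numbered 4 to 6, with Mcm2, Mcm3, Mcm6 and E2f2 lower and called in each and Ccne2 in each that kept it (it left under a filter of 5 CPM). Their highest adjusted p were 0.0457, 0.0256, 0.00045, 0.0268 and 0.0165. Members called higher numbered 0 to 2 with 1 library left out, and 1 with the replicate block. Same-numbered libraries did not deviate together (correlations over genes of 0.04, 0.03, 0.00 and 0.06), so the numbers were not taken as pairs. With that block 5 members remained lower, and other nucleotide genes called higher were 2. Of TMM, median-ratio and quantile scaling, TMM shifted the median of all genes most, by -0.021 on the log2 scale. edgeR and DESeq2 called the same 7 members. With 1 library left out, the median over members ran from -0.14 to -0.04. Counts higher ran from 4 to 6 (other replication), 1 to 2 (nucleotide), 2 to 4 (G1/S), 5 to 19 (mitotic) and 2 to 4 (inhibitors), and counts lower from 3 to 5, 3 to 5, 1 to 3, 0 to 0 and 0 to 1. Chromatin genes kept a count of 2 higher and had 2 to 3 lower. The 5 other replication genes called lower came without knockout replicate 2, the 2 nucleotide genes higher without knockout replicate 4, the 2 G1/S genes higher without knockout replicate 3, the 1 lower without that or wild type replicate 3, and the 19 without knockout replicate 1. Mitotic genes numbered 5 without knockout replicate 3 or wild type replicate 2, and 6 without knockout replicate 4. Under the filter of 5 CPM 3 mitotic genes were called, since fewer were tested. Leaving out 1 library, Dut ran from -0.023 (without knockout replicate 2) to 0.062. Members with an E2F word were 15, and 10 before the start only. Depth limits Cdc45, Chaf1a, Pole and the 4 members that failed the filter.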
